A study of Danio rerio with 6 samples.

Results

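The genes myo7aa (ENSDARG00000099871), klhl41b (ENSDARG00000006757) and wdr37 (ENSDARG00000074611) were 3 of the 31540 zebrafish genes counted in ovarian follicles. They were chosen by their measured change between primary growth (PG) and pre-vitellogenic (PV) follicles, as the largest rises outside the genes that the study discusses. The rise itself is therefore given as a description, without a test, in raw counts, in ratios with counting intervals and as the spread among PV libraries. The follicles came from wild type fish of the AB strain, whose age the labels do not give, and no treatment or mutation was involved. The smaller PG follicles were those under 100 μm in diameter, and the PV follicles measured between 180 and 250 μm. RNA of each stage was sequenced in 3 libraries. The ovaries of 3 fish were pooled for each of 3 groups of fish, both stages were taken from each group, and the whole follicle was used, so that the oocyte and its surrounding follicle cells were measured together. In such bulk samples, fewer cells of a type and less RNA per cell cannot be told apart.

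The 3 genes have unrelated roles. Myosin VIIa, the product of myo7aa, is an unconventional myosin, an actin motor that does not build muscle filaments. It is best known from the hair cells of the inner ear and lateral line, where it is needed for the bundle of stereocilia, and in humans its loss causes Usher syndrome, with deafness and blindness. The product of klhl41b belongs to the kelch-like proteins, which carry a BTB and a kelch domain and bring substrates to the ubiquitin ligase built on cullin 3. In skeletal muscle, KLHL41 keeps thin filaments and the nebulin protein stable, and in humans its mutation causes nemaline myopathy. The product of wdr37 is a protein of WD repeats, a fold that serves as a platform for other proteins. In mammals it forms a complex with the trafficking proteins PACS1 and PACS2.

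The libraries held between 14492086 and 36603108 counts, and 3 counts stood for between 8.20e-06% and 2.07e-05% of a library. The deepest was PG replicate 1, with 45.6% of the effective depth of its stage, and the shallowest was PG replicate 3, with 18%. In every library more genes had 4 counts (558 to 615 genes) than 3 (433 to 498), and more had 6 counts (347 to 394) than 5 (292 to 326). A read pair may thus in part enter as 2 counts, and intervals were also computed with 2 counts taken as 1 pair. The methods describe no molecular identifiers, so intervals and floors cover counting error only. Of the oocyte markers fixed for a check of the tissue, 10 of 10 matched genes were tested and detected. Of the follicle cell and steroidogenic markers, 13 of 13 matched genes had counts and 10 were tested. A count alone does not tell the tissue, since 27 of 32 skeletal muscle identifiers also had one. The p-values set the difference of the stages against the spread between libraries of a stage, each from a pool of fish. The main fit did not pair the stages by pool, although both were taken from each group of fish.

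The motor gene myo7aa was close to absent in PG follicles and well measured in PV follicles. Its raw counts were 4, 0 and 0 in PG replicates 1, 2 and 3, and 212, 124 and 141 in PV replicates 1, 2 and 3. Normalized counts, which are raw counts divided by 1 size factor per library, were 2.82, 0 and 0 in PG and 166, 156 and 123 in PV follicles. The stages did not overlap, and the lowest PV value, in replicate 3, was 43.5 times the highest PG value, in replicate 1. The PG mean was 0.938 ± 1.63 and the PV mean 148 ± 22.9 (SD, n = 3 each), and the fitted log2 fold change was 6.73 (standard error 0.48). This standard error, like the others given with edgeR fits, was derived from the F statistic of the test. DESeq2 gave a larger one for this gene, 0.79.

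The muscle gene klhl41b had almost the same course. Its raw counts were 4, 2 and 0 in PG and 206, 137 and 132 in PV replicates 1, 2 and 3. As normalized counts these were 2.82, 1.78 and 0 in PG and 162, 173 and 115 in PV follicles. Here too PV replicate 3 was the lowest of its stage, at 40.8 times the highest PG value. The means of the stages were 1.53 ± 1.42 and 150 ± 30.7 normalized counts (SD, n = 3 each), with a fitted log2 fold change of 6.19 (standard error 0.40). The standard error by DESeq2 was larger, 0.67.

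For wdr37, all PG counts were in 1 library. The raw counts were 12, 0 and 0 in PG replicates 1, 2 and 3, and 320, 154 and 233 in PV replicates 1, 2 and 3. The normalized counts were 8.45, 0 and 0 against 251, 194 and 203. The highest PV value was in replicate 1 and the lowest in replicate 2, which was still 23 times PG replicate 1. The PG mean was 2.82 ± 4.88 and the PV mean 216 ± 30.8 (SD, n = 3 each), and the fitted log2 fold change was 5.79 (standard error 0.49). Here DESeq2 gave a standard error of 1.48. No transcript lengths were used here, so the normalized counts give no order of the 3 genes by transcript level.

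**Figure D1:**
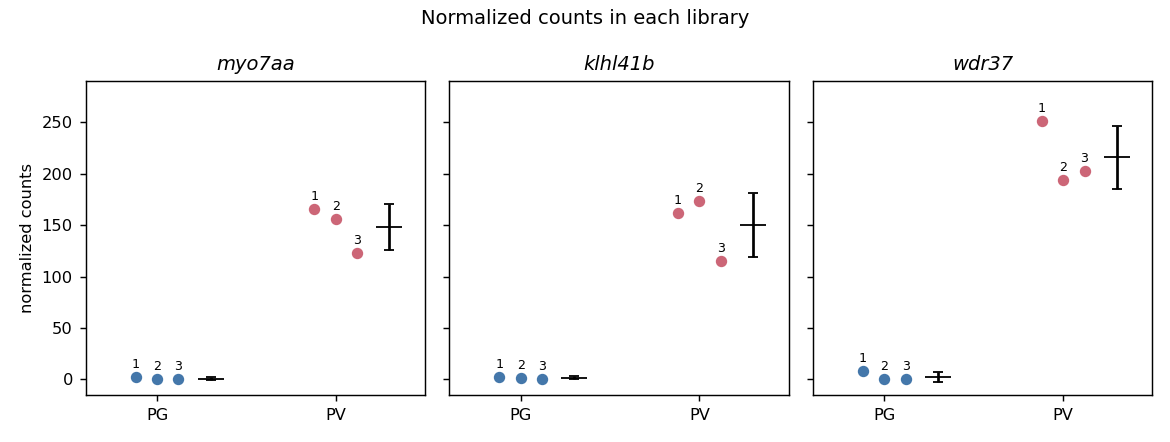
Normalized counts (vertical axis) of myo7aa, klhl41b and wdr37 in each PG (blue) and PV (red) library, with the replicate number above each point and the mean ± SD of 3 libraries beside it in black. All PV values lie at or above 115, and all PG values at or below 8.45.

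All 3 genes passed the thresholds for a differentially expressed gene (DEG), which were an adjusted p up to 0.05 and at least a doubling or halving (log2 fold change of 1 or -1). By this rule 2105 of 15899 tested genes, or 13.2%, were higher in PV follicles, and 949, or 5.97%, were lower. Every PV value was above every PG value in 36.5% of the tested genes. The genes were chosen for this contrast, so nothing is read from their calls. Among the 1220 genes called higher with no overlap of the stages and a mean normalized count of at least 50, myo7aa was at place 2 by its log2 fold change, klhl41b at place 4 and wdr37 at place 5. Genes with a lower mean were not ranked, such as amh (ENSDARG00000014357), with a mean of 44.4 and a log2 fold change of 5.98. The largest rise in this ranking, at place 1, was that of itga6a (ENSDARG00000042282), an integrin subunit gene with a log2 fold change of 7.62, and at place 3 stood has2 (ENSDARG00000036987), a hyaluronan synthase gene with 6.35. Just below wdr37 stood AC024175.4 (ENSDARG00000080337) with 5.41, btbd6a (ENSDARG00000076440) with 5.38 and sfxn5b (ENSDARG00000026137) with 5.31.

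How large the rises were depended on very few PG counts. Over all libraries, myo7aa had 477 counts in PV and 4 in PG follicles, a ratio of 115 after scaling, with a 95% exact interval of counting error from 44.5 to 422. With 2 counts taken as 1 read pair, the interval ran from 31.4 to 952. For klhl41b, 475 counts stood against 6, a ratio of 76.1 with an interval from 34.7 to 208, or from 25.7 to 372 in read pairs. For wdr37, 707 counts stood against 12, a ratio of 56.6 with an interval from 32.2 to 110, or from 25.8 to 155 in read pairs. The 3 intervals overlapped, so the order of the rises could not be told from these counts. As a lower bound that considers counting error alone and pools the libraries of each stage, the smallest of the interval ends was 25.7. With the lowest PV library set against PG replicate 1 alone, the lower ends in read pairs were 11.5 for myo7aa, 10.8 for klhl41b and 9.99 for wdr37.

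Most of the few PG counts lay in PG replicate 1. It held 100% of the PG counts of myo7aa and wdr37 and 66.7% of those of klhl41b. Against PG replicate 1 alone, the ratio of PV over PG was 52.3 for myo7aa, with an interval of counting error from 14.3 to 434 in read pairs. It was 52.1 for klhl41b, with an interval from 14.3 to 432. It was 25.8 for wdr37, with an interval from 11.7 to 70.8. In that library the 3 genes stood at 1.91%, 1.9% and 3.94% of their mean PV level. Without PG replicate 1, the PG follicles held no count of myo7aa or wdr37. A floor of 3 read pairs, or 6 counts, was therefore set over PG replicates 2 and 3 together. The PV level was 41.6 times this floor for myo7aa and 61.6 times for wdr37. These ratios carry no interval, since the PV counts were taken as exact, and are not comparable with the interval ends. For klhl41b, 2 PG counts were left, all in replicate 2, and the ratio was 124 with an interval from 34.2 to 1028, or from 22.1 to 4924 in read pairs.

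**Figure D2:**
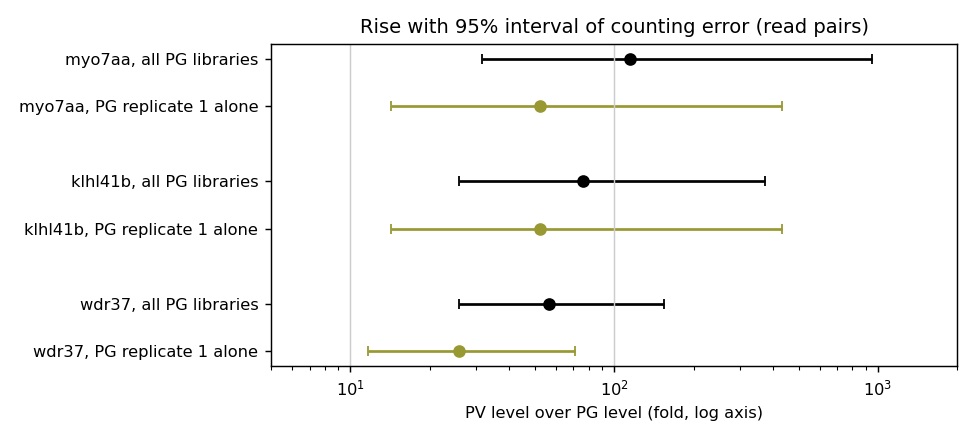
Ratio of the PV over the PG level (horizontal log axis, fold) of each gene, with 95% exact intervals of counting error in read pairs, against all 3 PG libraries (black) and against PG replicate 1 alone (olive). The lowest interval ends are 25.7 against all PG libraries and 11.7 against PG replicate 1.

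The concentration of PG counts in replicate 1 was set against other genes with steep rises. Apart from the 3 genes and AC024175.4, which alone had 362851 PV counts, 117 genes were called higher with a log2 fold change of at least 4. Of these, 37 had no PG count and 41 had PG counts in 1 library only, which was replicate 1 for 28 genes, replicate 2 for 8 and replicate 3 for 5. PG replicate 1 held 47.6% of their PG counts and 45.6% of the PG depth, and replicate 3 held 14.7% of the counts and 18% of the depth. Its summed level of the 117 genes was 171 counts per 1000000 counts (CPM), against 170 in replicate 2 and 134 in replicate 3. Of the 80 genes with a PG count, the highest PG level was in replicate 1 for 43, in replicate 2 for 26 and in replicate 3 for 11.

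The 3 genes varied moderately among the PV libraries. The coefficient of variation over the 3 PV libraries was 15.5% for myo7aa, 20.5% for klhl41b and 14.3% for wdr37, and the highest PV value was 1.36, 1.5 and 1.29 times the lowest. Counting error alone would give 7.93%, 7.95% and 6.51%, or 11.2%, 11.2% and 9.21% in read pairs. Among the 2780 tested genes with a PV mean within 2-fold of that of myo7aa, the median was 10.6%, and 75.4% had a smaller coefficient of variation. For klhl41b, 90% of 2780 such genes had a smaller one, and for wdr37 80.3% of 3031. The spread of each gene was thus above the median and below the 95th percentile of genes at its level, which were 25.5%, 25.3% and 21%.

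The PV libraries furthest from the PV mean were not the same for the 3 genes. PV replicate 3 was the lowest for myo7aa, at -17.4% from the PV mean, and for klhl41b, at -23.3%. For wdr37, PV replicate 1 stood apart, 16.3% above the mean, with replicates 2 and 3 at -10.1% and -6.18%. Without PV replicate 3, the coefficient of variation was 4.46% for myo7aa and 4.61% for klhl41b, and without PV replicate 1 that of wdr37 was 3.05%. Leaving out the library furthest from the mean lowers the spread of any gene, so nothing is read from these values. They were also below the counting error of 7.93%, 7.95% and 6.51%. Among 810 other genes called higher at similar PV levels, replicate 3 was the lowest PV library for 46.5%, with a median deviation of -3.88% from the PV mean.

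**Figure D3:**
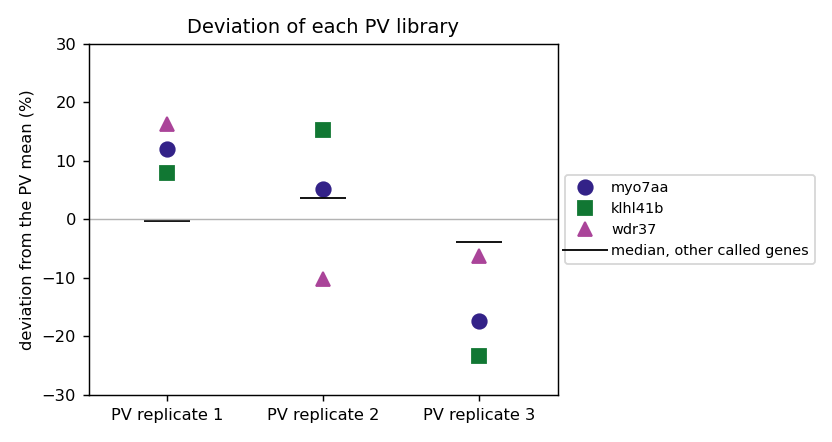
Deviation of each PV library from the PV mean (vertical axis, percent) for myo7aa, klhl41b and wdr37, with the median over 810 other called genes as black bars. Replicate 3 is lowest for myo7aa and klhl41b at -17.4% and -23.3%, and replicate 1 is highest for wdr37 at 16.3%.

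The genes most like the 3 genes were sought by the distance between log2(CPM + 0.5) values over the 6 libraries, which takes in a difference in count level as well as in course. The gene nearest to myo7aa was klhl41b, at a distance of 0.27, and the gene nearest to klhl41b was myo7aa. Next for both came itga6a, at 0.32 from myo7aa and 0.43 from klhl41b, followed by sfxn5b, a mitochondrial carrier gene of the sideroflexin family, has2 and btbd6a. For wdr37 the nearest was sfxn5b at 1.00, followed by SLC3A2 (ENSDARG00000055791), the heavy chain of amino acid transporters, at 1.01, and celsr1a (ENSDARG00000069185), a cadherin of planar cell polarity, at 1.04. At 1.05 and 1.12 came myo7aa and klhl41b. All these genes share the same 6 libraries, and no PG library held more than 20 counts of any of them. The 3 genes were chosen for the size of their rise in these libraries. Their closeness to each other and to other steep rises thus follows in part from that choice. With Pearson correlation in place of the distance, 0 of the 5 nearest genes were shared for each gene.

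The closest relatives of myo7aa were barely detected at either stage. A second gene under the human name MYO7A (ENSDARG00000044632) had 4, 4 and 0 counts in PG and 4, 9 and 4 in PV replicates 1, 2 and 3. For MYO7B (ENSDARG00000044441) the counts were 6, 4 and 0 in PG and 7, 3 and 3 in PV, and for myo7bb (ENSDARG00000077201) 2, 0 and 0 in PG and 6, 0 and 2 in PV. None of these relatives passed the filter on low counts, and none had more than 9 counts in a library. Reads shared between these relatives could be split by the counting, but few were assigned to them.

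Of the other unconventional myosins, 27 genes were tested, of which 4 were called higher in PV follicles and 2 lower, or 14.8% and 7.41%, beside 13.2% and 5.97% of all tested genes. Their median log2 fold change was 0.21, against 0.03 over all genes. The largest rises were in myo1ca (ENSDARG00000020924) with a log2 fold change of 2.14 (adjusted p = 0.0149), myo10l3 (ENSDARG00000074143), of the class that works in filopodia, with 1.65 (adjusted p = 0.00233), and MYO1D (ENSDARG00000036863) with 1.34 (adjusted p = 1.59e-06). Of these, myo1ca lost its call without PG replicate 2 or PV replicate 1. The fourth was myo9ab (ENSDARG00000073843) with 1.21. In the other direction, myo1hb (ENSDARG00000078603) fell, with normalized counts of 477 ± 48 and 214 ± 31.8 at the stages (SD, n = 3 each). Its fitted log2 change was -1.15 (adjusted p = 1.95e-05). The fall of myo3b (ENSDARG00000006892), with a log2 fold change of -1.41, was called at an adjusted p of 0.048, and 5 of the 6 fits with a library left out did not call it. Scaled by library totals, where the median of all genes was 0.45, neither fall was called. The myosin gene with the highest mean normalized count, not divided by length, was MYO18A (ENSDARG00000061862), with 3652 ± 177 and 3964 ± 243 normalized counts (SD, n = 3 each) and no call.

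Partners of myosin VIIa in hair bundles and pigment transport were read next. Of 11 tested genes, 1 (9.09%) was called higher and 0 lower by edgeR's quasi-likelihood test, beside 13.2% and 5.97% of all tested genes, with a median log2 fold change of -0.26, and DESeq2 also called 0 lower. At any fold change, 4 were lower at an unadjusted p under 0.05, and 4 were lower and 1 higher at an adjusted p up to 0.05. The called gene was espn (ENSDARG00000076414), an actin bundling protein of stereocilia, which had 14, 14 and 6 counts in PG and 51, 23 and 36 in PV replicates 1, 2 and 3, with a fitted log2 change of 1.60 (standard error 0.39, adjusted p = 0.00469). Other genes of the Usher proteins were read as well. USH1C (ENSDARG00000051876), the harmonin gene, had at most 4 counts in any library, and CDH23 (ENSDARG00000007561), a tip link cadherin, at most 12.

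The relatives of klhl41b in muscle were at or near 0 counts. The second gene under the human name KLHL41 (ENSDARG00000068888) had 0 counts in each library except PV replicate 3, with 3. Of the 2 genes named KLHL40, whose human relative is also a nemaline myopathy gene, ENSDARG00000019125 had no count and ENSDARG00000039052 had 7, 14 and 4 counts in PG and 6, 0 and 0 in PV replicates 1, 2 and 3. The nebulin gene NEB (ENSDARG00000032630), whose product KLHL41 stabilizes, had 3, 0 and 4 counts in PG and 0, 2 and 0 in PV. Another gene of the partner list, NRAP (ENSDARG00000009341), had none. Only lmod3 (ENSDARG00000062662), the gene of the thin filament protein leiomodin 3, was called among the partners, with 33, 28 and 14 counts in PG and 9, 6 and 19 in PV replicates 1, 2 and 3. Its log2 fold change was -1.21 with an adjusted p of 0.0435, and 5 of the 6 fits with a library left out did not call it. The ligase itself was well expressed at both stages. Its scaffold genes CUL3 had 2311 ± 23.1 and 2501 ± 82.7 normalized counts (ENSDARG00000038967) and 2349 ± 183 and 1905 ± 68.1 (ENSDARG00000100108) in PG and PV follicles (SD, n = 3 each), and neither passed the thresholds. Of the 7 tested partners 0 were called higher and 1 lower by edgeR's quasi-likelihood test, beside 13.2% and 5.97% of all tested genes. At any fold change, 2 were higher at an unadjusted p under 0.05. With the adjusted p up to 0.05, 1 was higher and 4 were lower, and DESeq2 called 0. So few genes give no reading of the list as a whole.

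In the kelch-like family, 26 other genes were tested, of which 5 were called higher and 1 lower, or 19.2% and 3.85%, beside 13.2% and 5.97% of all tested genes. The median log2 fold change was 0.49. The largest rises were in klhl22 (ENSDARG00000088807) with 3.82, klhl3 (ENSDARG00000056647) with 2.45 and klhl21 (ENSDARG00000039255) with 1.76, all as log2 fold changes. The first of these had 4, 0 and 0 counts in PG and 22, 13 and 27 in PV replicates 1, 2 and 3 (adjusted p = 0.00215). For klhl3, 5 of the 6 fits with a library left out gave no call. For klhl21, an adaptor that acts in cell division in human cells, the rise was from 74.5 ± 5.83 to 256 ± 18.1 normalized counts (SD, n = 3 each, adjusted p = 1.59e-06). The gene that fell was klhl35 (ENSDARG00000063577), with a log2 fold change of -1.06 (adjusted p = 1.29e-06), and its call was lost under scaling by library totals, at -0.64. The family member with the highest mean normalized count was klhl13 (ENSDARG00000086463), with 2669 ± 202 and 2397 ± 79.9 normalized counts in PG and PV follicles (SD, n = 3 each) and no call.

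The WD repeat genes were taken by a name of wdr and a number, which also takes in WDR83OS, and the protein fold was not checked. Of 46 others tested, 4 were called higher and 0 lower by edgeR's quasi-likelihood test, or 8.7% higher. Of all tested genes, 13.2% were called higher and 5.97% lower. The median log2 fold change of the 46 genes was 0.09. At any fold change, 15 were lower at an unadjusted p under 0.05. With the adjusted p up to 0.05, 14 were lower and 18 higher, and DESeq2 called 0 lower. The largest rises were in wdr81 (ENSDARG00000079702), which acts on endosomes in mammals, with a log2 fold change of 1.56 (adjusted p = 2.84e-07), wdr89 (ENSDARG00000077265) with 1.29 (adjusted p = 2.03e-06) and wdr60 (ENSDARG00000076934) with 1.22 (adjusted p = 6.03e-07). Both wdr60 and the fourth gene, wdr35 (ENSDARG00000069269), also with 1.22, serve transport within cilia. The highest mean normalized count was that of WDR43 (ENSDARG00000077264), a gene of ribosome assembly. Its PG mean was 9141 ± 349 and its PV mean 6150 ± 97.9 (SD, n = 3 each), and its log2 fold change of -0.57 did not reach the fold threshold.

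The partners of WDR37 were expressed at both stages. PACS1 (ENSDARG00000044556), a sorting adaptor of the trans-Golgi network, had means of 1038 ± 38.9 and 1464 ± 89.8 normalized counts at the stages (SD, n = 3 each), with a log2 fold change of 0.49 (adjusted p = 8.40e-05). For PACS2 (ENSDARG00000078185) the means were 291 ± 10.5 and 365 ± 13.3 normalized counts (SD, n = 3 each), with a log2 fold change of 0.32 (adjusted p = 0.00621). Both differences passed the adjusted p and neither reached the fold threshold.

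**Figure D4:**
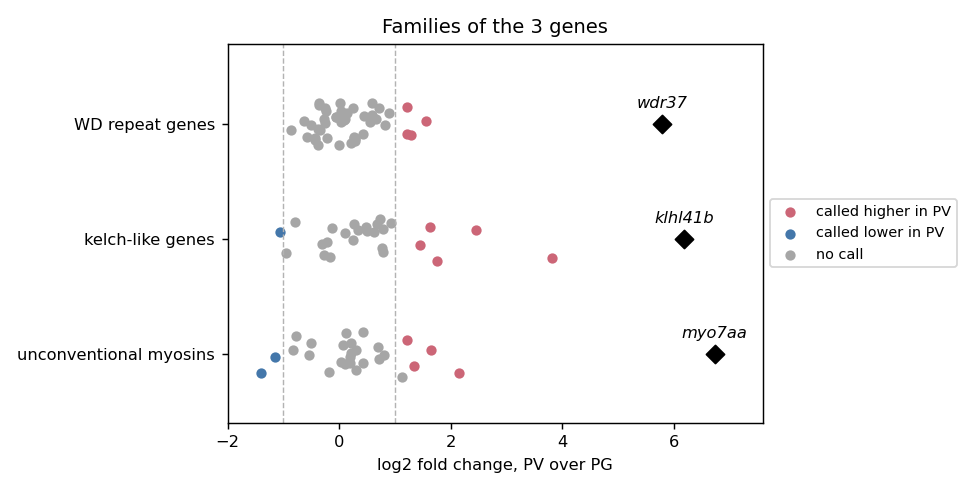
Log2 fold change (horizontal axis, PV over PG) of each tested gene of the families of myo7aa, klhl41b and wdr37 (black diamonds), with genes called higher in red, called lower in blue and not called in grey. Dashed lines mark a log2 fold change of -1 and 1; the highest value of another family member is 3.82, for klhl22.

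The genes beside the 3 genes in the RefSeq order of the GRCz12tu assembly were examined next, as names only, since the counts were made on another assembly. Of 5 protein-coding neighbours on each side, 19 could be paired with an identifier and 14 were tested, of which 4 were called higher and 0 lower by edgeR's quasi-likelihood test, or 28.6% higher, beside 13.2% of all tested genes. At any fold change, 2 were lower at an unadjusted p under 0.05, and 2 were lower and 6 higher at an adjusted p up to 0.05. DESeq2 called 5 higher and 0 lower. The direct neighbour of wdr37 was idi1 (ENSDARG00000019976), the gene of an isomerase of cholesterol synthesis, which rose from 99.2 to 507 mean normalized counts (log2 fold change 2.37, standard error 0.10, adjusted p = 2.75e-08). Further from wdr37, BDH1 (ENSDARG00000059388), a ketone body enzyme, had a log2 fold change of 1.12 (adjusted p = 0.00602), and its call was lost without PG replicate 2. Near myo7aa, the water channel gene aqp11 (ENSDARG00000100555) had 1.53 and 19.6 mean normalized counts at the stages and a fitted log2 change of 3.33 (standard error 0.68, adjusted p = 0.0017). Near klhl41b, FO704755.1 (ENSDARG00000005846), which RefSeq calls sp5b, had a log2 fold change of 1.85 (adjusted p = 0.000197). On each side of klhl41b, the nearest genes that could be paired were faah and ppig, with log2 fold changes of 1.14 (adjusted p = 0.185) and -0.13 (adjusted p = 0.128). In that assembly myo7aa overlaps gdpd4a, whose gene GDPD4 (ENSDARG00000102447) had 0 counts in all 6 libraries, and wdr37 overlaps nck1b. Both genes named NCK1 had counts in each PG library and no call, with log2 fold changes of 0.18 and 0.51. The sources do not say whether strand was used in the counting, and reads of overlapping genes could then not be told apart.

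Since klhl41b is known from muscle and myo7aa from hair cells and pigment epithelium, markers of these cells were read beside them. The counts of calls in each marker list stand beside 13.2% called higher and 5.97% called lower of all tested genes. Of the 32 identifiers matched to the skeletal muscle list, 13 were tested, and 0 were called higher and 2 lower by edgeR's quasi-likelihood test. At any fold change, 1 was higher at an unadjusted p under 0.05, and 0 were higher and 5 lower at an adjusted p up to 0.05. DESeq2 called 0 higher. The summed level of the list was between 1261 and 1322 CPM in PG and between 774 and 877 CPM in PV libraries. Most of it came from ENO3 (ENSDARG00000039007), a gene of glycolysis with 27346 and 17833 mean normalized counts. Other members were also measured, such as actn3b, with 456 and 109 mean normalized counts in PG and PV and a called log2 fold change of -2.07, RYR1, with 582 and 302, and ACTA1 (ENSDARG00000055618), with 107 and 142. Of the same list, TNNT3 (ENSDARG00000030270) had 142, 115 and 42 counts in PG and 90, 42 and 71 in PV replicates 1, 2 and 3. For ckma (ENSDARG00000035327) these were 54, 41 and 13 in PG and 21, 4 and 23 in PV. The markers MYL1 and smyhc1 had no count, MYOG had 2 counts in PV replicate 1 alone, and MYOD1 had 2 in PG replicate 2 and 6 in PV replicate 3. Of the 18 identifiers of the hair cell list, 7 were tested and 1 was called higher, which was tmc1 (ENSDARG00000056386) with a log2 fold change of 1.11 (adjusted p = 0.000412), and the summed level was between 112 and 121 CPM in PG and between 126 and 142 CPM in PV libraries. Of the identifiers matched to the hair cell list, MYO6 (ENSDARG00000044016) had the most counts. Its means were 1891 and 2157 normalized counts in PG and PV. The list names only myo6b, and ENSDARG00000042141 is also named MYO6, with means of 77.6 and 90.1. The name does not tell which of them is myo6b, and the summed level takes in both. The genes named OTOF had 258 and 419 (ENSDARG00000030832) and 141 and 76.2 (ENSDARG00000020581). The hair cell markers POU4F3, SLC17A8, tmie and pvalb9 had no count in any library. The pigment list had 4 tested genes, of which 1 was called higher and 1 lower, with summed levels from 15.1 to 16.3 CPM in PG and from 11.7 to 17 CPM in PV libraries.

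Other marker lists were read against the same shares of all tested genes, 13.2% called higher and 5.97% called lower. Of the 8 tested identifiers of the smooth muscle list, 4 were called higher and 2 lower, and the summed level was between 16.5 and 22.4 CPM in PG and between 32.4 and 36.3 CPM in PV libraries. Chosen after the values were seen, myh11a (ENSDARG00000009782), the smooth muscle myosin heavy chain, had 61, 22 and 0 counts in PG and 271, 155 and 220 in PV replicates 1, 2 and 3. Both identifiers named mylka, a myosin light chain kinase, were called lower, with 242 and 110 mean normalized counts in PG and PV for ENSDARG00000034801 and 22.9 and 3.49 for ENSDARG00000090738. Of the 10 tested follicle cell and steroidogenic markers, 8 were called higher and 0 lower by edgeR's quasi-likelihood test, with a median log2 fold change of 3.75. DESeq2 called 0 lower. The summed level of these markers was between 387 and 428 CPM in PG and between 323 and 346 CPM in PV libraries. Most of it came from CYP11A1 (ENSDARG00000002347), which had 8967 and 5414 mean normalized counts. Its log2 fold change of -0.73 had an adjusted p of 5.45e-07 by edgeR's test and missed only the fold threshold. Of 10 oocyte markers, 4 were called lower and 0 higher by edgeR's quasi-likelihood test, and DESeq2 called 0 higher. At any fold change, 1 was higher at an unadjusted p under 0.05, and 1 was higher and 6 lower at an adjusted p up to 0.05. The summed level of the oocyte markers was between 4949 and 5210 CPM in PG and between 2432 and 2570 CPM in PV libraries. The highest means were those of buc, with 51132 and 24229 normalized counts in PG and PV, and zar1, with 35168 and 10802, both called lower. The 6 genes without a call included GDF9, with 1298 and 1258, and DDX4, with 5032 and 6140. Of 7 tested endothelial markers, 3 were called higher and 1 lower, with summed levels from 15.2 to 19.9 CPM in PG and from 25.9 to 29.5 CPM in PV libraries. Of 4 tested blood cell markers, 2 were called lower. Of 8 leukocyte markers none was called in either direction by edgeR's quasi-likelihood test or DESeq2. At any fold change, 1 leukocyte marker was lower at an unadjusted p under 0.05, and 1 was lower and 0 higher at an adjusted p up to 0.05. The part of these cell types in the rise of the 3 genes was not tested.

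The fitted size of the rises also depended on the model, above all for wdr37. DESeq2 without shrinkage gave a log2 fold change of 6.87 for myo7aa, 6.30 for klhl41b and 6.15 for wdr37, the last with a standard error of 1.48, against 0.79 and 0.67 for the others. With the fold-change prior of DESeq2, which pulls uncertain values towards 0 and was added after the data were seen, the values were 4.88, 4.69 and 1.32. Of the 2105 genes called higher, 0 lost more of their log2 fold change between these fits than wdr37, which lost 4.84, while 105 lost more than myo7aa and 178 more than klhl41b. Its 12 counts in PG replicate 1 stood beside 0 in the other PG libraries. The part of these counts in the shrinkage was not tested.

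**Figure D5:**
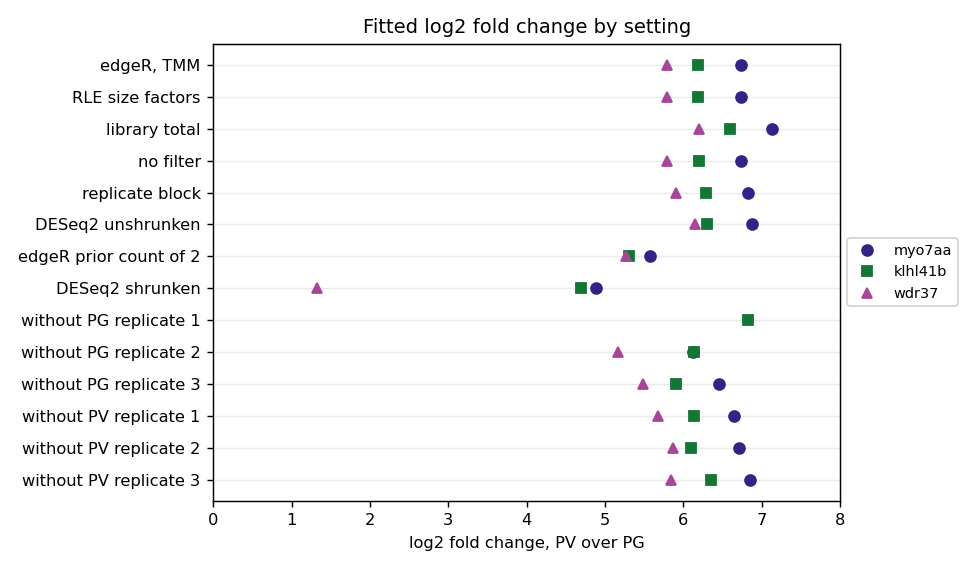
Fitted log2 fold change (horizontal axis, PV over PG) of myo7aa (circles), klhl41b (squares) and wdr37 (triangles) under each of the edgeR and DESeq2 fits plotted (rows). The plotted values lie between 4.69 and 7.13 except that of wdr37 with shrunken DESeq2 fold changes, 1.32; without PG replicate 1 only klhl41b is plotted, since the PG counts of the others were then 0.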

How the data were processed

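The authors aligned 100-bp read pairs to the GRCz10 assembly with TopHat2 and took counts per Ensembl gene with StringTie and the prepDE script, by which coverage becomes a number of reads. The authors deposited these raw counts and a signal of normalized counts in which every library was divided by a DESeq2 size factor (0.554 to 1.42). The labels and the methods name different library kits.

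The members and gene lists were chosen with earlier results of these data known. Low genes were removed by edgeR's filterByExpr (count of 10, total of 15), and the rest were scaled by TMM and tested with edgeR's quasi-likelihood test (edgeR 4.0.16, limma 3.58.1, R 4.3.3) with Benjamini-Hochberg adjustment over 15899 genes; the model was checked on simulated data. DESeq2 1.42.0 was an alternative, beside other scalings and filters, a block for the replicate number, and leaving out each library. CPM are counts per 1000000 counts of the TMM-scaled library. Ratios of summed counts carry exact conditional (Clopper-Pearson) intervals at 95%, and the floor of a fold was 3 read pairs (6 counts), set after the data were seen in place of 3 counts (scipy 1.17.1). Standard errors, except those of DESeq2, were derived from the F statistic, and for the 3 genes they were smaller than those of DESeq2. Figures were drawn with matplotlib 3.10.9.

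Names come from the study's supplementary table and otherwise from a table of human-style symbols, printed in capitals. Listed zebrafish symbols without a match were matched by the human-style symbol, which can take in a paralog that was not listed. Named genes were the members, their paralogs, called partners and neighbours, the 3 largest rises and falls and the highest mean of each family, the 5 nearest patterns and the genes ranked around the members. Other genes, such as the uncalled partners USH1C, CDH23, NEB, NRAP, CUL3, PACS1 and PACS2, the uncalled neighbours, the fourth rise of a family and marker genes, were named after their values were seen. No sequences were used here.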

Additional observations from a re-analysis of the deposited data

How the results depend on the processing

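Each of the 3 genes was higher in PV follicles under every setting that gave a value, and was called in each edgeR and DESeq2 fit run except the filter of 10 counts in every library, which removed all 3. The genes were chosen for this contrast in these libraries, so this outcome was largely fixed in advance and nothing is read from it. The log2 fold change of myo7aa was 7.13 with library totals, 4.88 with shrunken DESeq2 values, 5.57 with a prior count of 2 and 7.31 from the deposited normalized counts. For klhl41b these values were 6.60, 4.69, 5.31 and 6.61, and for wdr37 6.20, 1.32, 5.27 and 6.26, with 6.15 by unshrunken DESeq2. With a library left out, they ran from 6.12 to 6.85 for myo7aa, from 5.91 to 6.83 for klhl41b and from 5.16 to 5.87 for wdr37. No fold is given for myo7aa and wdr37 without PG replicate 1, since their PG counts were then 0. The coefficient of variation in PV ran from 4.46% to 21.4% for myo7aa, from 4.61% to 28.5% for klhl41b and from 3.05% to 18.2% for wdr37 with a PV library left out. Library totals gave 3663 genes called higher and 415 lower, a share of 89.8% higher against 68.9%, and the strict filter, which tests fewer genes, gave 1223 and 614. Under library totals, 8 myosins were called higher and 0 lower, 11 kelch-like genes higher and 0 lower, 8 WD repeat genes higher, and 0 partners of klhl41 lower. With that scaling, 1 skeletal muscle, 1 smooth muscle and 2 oocyte markers were called lower. The pigment, blood cell and endothelial lists each had 0 called lower, and 2 hair cell markers were called higher. Under the strict filter, 2 myosins were called higher and 1 lower, 3 kelch-like genes higher, 0 partners of myosin VIIa higher and 0 partners of klhl41 lower. Without a filter, and by DESeq2 with and without shrinkage, 1 myosin and 0 partners of klhl41 were called lower. With a library left out, between 1 and 2 myosins, between 0 and 1 partners of myosin VIIa, between 1 and 2 kelch-like genes and between 0 and 1 partners of klhl41 were called lower. For the changes with library totals, DESeq2 and left-out libraries, the cause was not tested.

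With the replicate number as a block, 1983 genes were called higher and 860 lower, 1 myosin and 0 partners of klhl41 were called lower, and the log2 fold changes were 6.82 for myo7aa, 6.29 for klhl41b and 5.90 for wdr37. Same-numbered libraries had correlations of their deviations between -0.0202 and 0.0119 over 12229 genes, and the methods, by which both stages came from the same groups of fish, do not say that the numbers mark these groups, so the samples were taken to share only a number. The nearest genes by distance shared 2, 4 and 3 of 5 with those at a pseudocount of 0.1 for myo7aa, klhl41b and wdr37. Depth limits the size of the rises, which rest on 4, 6 and 12 PG counts.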
